A study of Mus musculus with 4 samples.

Results

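The genes described here are 33 listed genes of liver glucose metabolism, taken from the 48709 gene identifiers counted in each library by matching Ensembl identifiers to mouse symbols. They cover glucose transport and release (4 genes), upper glycolysis and fructose use (6), lower glycolysis (9), the pyruvate dehydrogenase complex (3), gluconeogenesis (4) and glycogen (7). They were listed by function, with earlier results of these data known, and all 33 were matched and passed the filter on low counts. Liver RNA from untreated C57BL/6 mice was sequenced as 4 mRNA libraries, 2 labelled WT and 2 labelled DDI2-KO. The WT mice were littermates that carried the floxed Ddi2 allele (Ddi2 flox/flox) without Cre. The DDI2-KO mice, with the genotype label DDI2-/-, carried the same floxed allele plus a Cre transgene driven by the albumin promoter and so active in hepatocytes. The study used adolescent to young adult mice of both sexes, and the sex and feeding state of the mouse behind each library were not given. DDI2 is an aspartic protease that cleaves the transcription factor NRF1, and the comparison asks which transcripts differ in liver that lacks it.

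Liver stores glucose as glycogen after a meal and returns it to the blood between meals. Glucose enters hepatocytes through the carrier GLUT2, is phosphorylated and is split by glycolysis to pyruvate, which pyruvate dehydrogenase turns into acetyl-CoA for oxidation or fat synthesis. In fasting, pyruvate carboxylase, phosphoenolpyruvate carboxykinase and fructose-1,6-bisphosphatase run the route backwards, and glucose-6-phosphatase, inside the endoplasmic reticulum, frees the glucose. Glycogen synthase and glycogen phosphorylase build and break the store, and regulatory subunits of protein phosphatase 1 bring that phosphatase to glycogen and so set the activity of both enzymes.

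The libraries held 22501208 to 34109018 reads on genes, and levels are given as CPM, read counts scaled for library size by TMM. The count of the targeted gene Ddi2 was 141 and 123 CPM in WT and 157 and 164 CPM in DDI2-KO (log2 fold change 0.28, standard error 0.17, adjusted p = 0.349). A whole-gene count also holds reads from exons outside the floxed part, so it does not check the deletion. DDI2-KO therefore stands here for the label. Of 6 hepatocyte markers 0 passed the test of edgeR or DESeq2 or had an unadjusted p under 0.05, and in 4 the groups overlapped. Their summed level was 158735 and 183207 CPM in WT and 149558 and 153629 CPM in DDI2-KO, so both DDI2-KO sums were lower. Most of each sum was from Alb (134404 and 154589 CPM in WT, 122390 and 128489 CPM in DDI2-KO). Of the 6 log2 fold changes, 2 were above 0 and 4 below. In bulk liver, fewer cells of a type and less RNA per cell cannot be told apart, and the p-values measure only the spread between these samples.

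Of the 33 genes, 3 rose in DDI2-KO and 0 fell by edgeR's quasi-likelihood test at an adjusted p under 0.05. The 3 were G6pc, the catalytic subunit of glucose-6-phosphatase, Pgk1, the phosphoglycerate kinase of glycolysis, and Dlat, the acetyltransferase subunit of pyruvate dehydrogenase. The number called was 10 with DESeq2 and 1 without WT replicate 1. DESeq2 called 10 higher and 0 lower, where over all genes it called 508 higher and 424 lower. At an unadjusted p under 0.05, 14 of the 33 genes were higher and 1, Gys2, was lower. How many of all genes had such a p was not counted. This count and those at that p below therefore have no baseline. The 3 genes called make up 9.09% of the list, whereas 1.33% of all 13699 genes tested rose, 1.2% fell and 2.53% passed in either direction. At an adjusted p under 0.1, 9 of the 33 genes were higher and 0 lower, where 4.81% of all genes were higher at that threshold. The log2 fold changes of the 33 genes had a median of 0.38 and ran from -0.60 to 3.34, while the median over all genes tested was -0.01. In 19 genes (57.6%) both DDI2-KO libraries lay above both WT libraries, against 28% of all genes. In 1 gene, Gys2, both lay below, as they did in 27.7% of all genes, and in the other 13 genes the groups overlapped. Of the 33 fold changes, 24 were above 0 and 9 below. The genes were chosen with results of these data known, so these counts describe the list and no test was made over it.

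**Figure D1:**
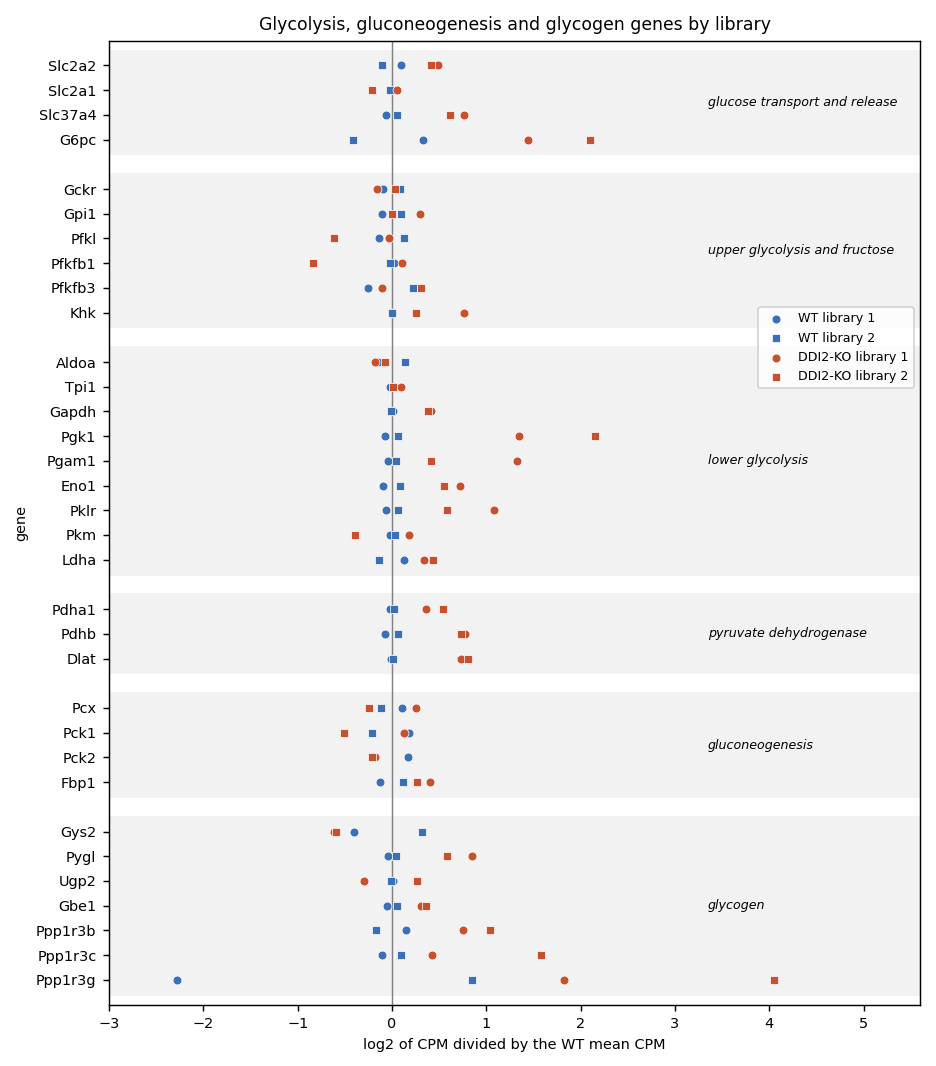
Level of each of the 33 genes in each library, as log2 of its CPM divided by the mean CPM of the 2 WT libraries, grouped by role (blue, WT; red, DDI2-KO; circles, library 1; squares, library 2). Both red points lie to the right of both blue points in 19 genes, among them all 3 listed genes of the pyruvate dehydrogenase complex, and Gys2 is the 1 gene with both to the left.

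**Figure D2:**
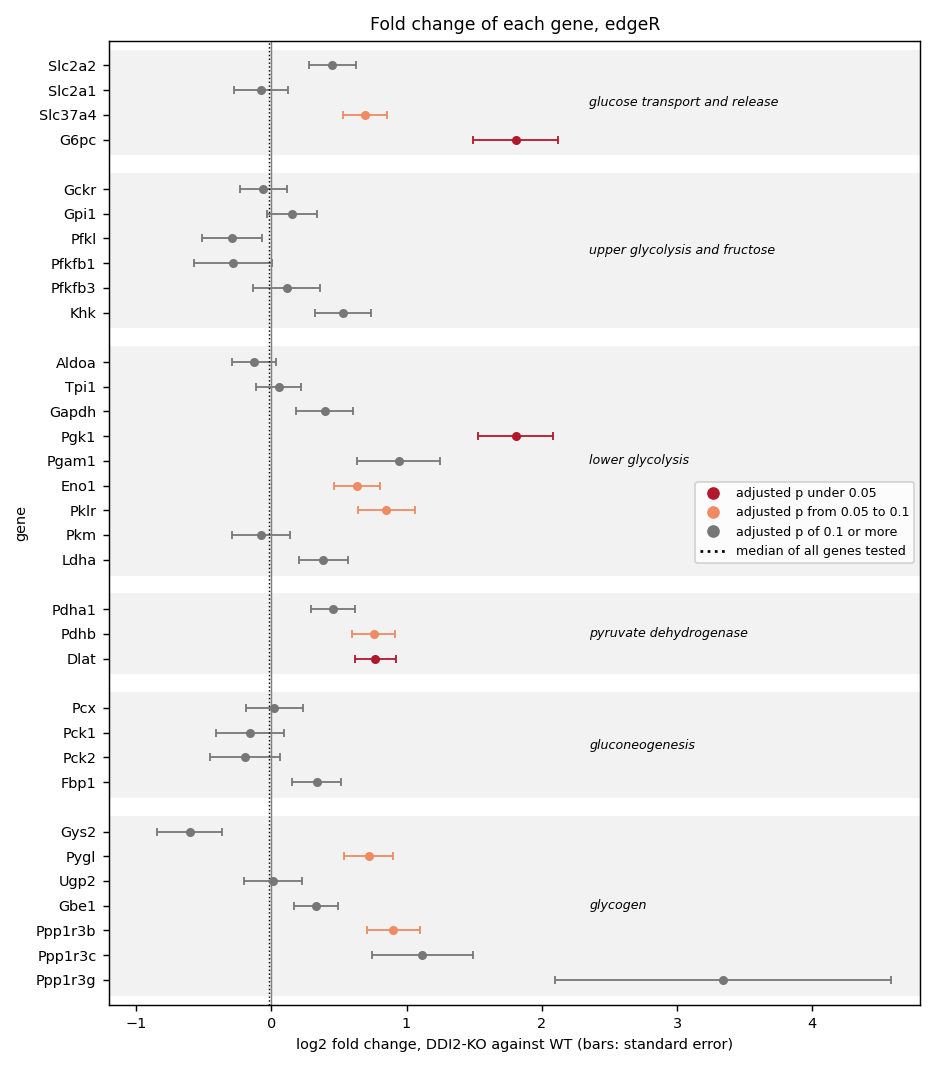
Log2 fold change of each gene in DDI2-KO against WT from edgeR, with its standard error as bars, coloured by adjusted p, and the median of all genes tested as a dotted line. Dark red marks G6pc, Pgk1 and Dlat, orange the 6 further genes with an adjusted p between 0.05 and 0.1, and Ppp1r3g has the widest bar (1.24).

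The stretches before the start sites of the 3 genes that rose are shown to give the sequence context of the results, from RefSeq on GRCm38.p6, each written 5′ to 3′ on the strand of its gene. The stretch for Dlat is chr9:50659781-50660030 (minus strand) and that for Pgk1 is chrX:106186850-106187099 (plus strand), both 250 bases. For G6pc it is the 95 bases of chr11:101367466-101367560 (plus strand), since the GENCODE annotation starts the gene 3′ of these, upstream of the RefSeq start at 101367716. Capitals mark matches to 7 motifs searched on both strands, of which the cAMP response element (TGACGTCA) and the E-box (CACGTG) had none in the 3 genes.
Dlat: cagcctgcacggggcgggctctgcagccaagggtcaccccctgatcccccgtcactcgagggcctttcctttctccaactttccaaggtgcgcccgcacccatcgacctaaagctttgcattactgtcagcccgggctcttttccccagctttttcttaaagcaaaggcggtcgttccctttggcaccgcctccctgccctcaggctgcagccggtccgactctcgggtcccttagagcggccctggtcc
G6pc: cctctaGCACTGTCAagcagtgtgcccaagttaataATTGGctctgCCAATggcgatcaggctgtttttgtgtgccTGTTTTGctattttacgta
Pgk1: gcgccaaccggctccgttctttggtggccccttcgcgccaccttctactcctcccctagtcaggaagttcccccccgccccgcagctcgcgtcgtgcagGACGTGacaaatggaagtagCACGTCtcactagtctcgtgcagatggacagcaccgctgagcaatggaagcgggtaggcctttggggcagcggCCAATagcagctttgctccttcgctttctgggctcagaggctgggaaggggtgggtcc
The stretch of G6pc held a minus-strand match to TGACNNNGC, the core of the antioxidant response element, at -244 from the RefSeq start, a CCAAT box on each strand and TGTTTTG, the insulin response motif bound by FOXO factors, at -174. A TATAAA lay at -29, past the end of the stretch printed. The stretch of Pgk1 held GACGTG, the hypoxia response core, on each strand and 1 CCAAT box, and that of Dlat held none of the 7 motifs. Over the 250 bases before the start, 31 of the 33 genes had an entry. GACGTG stood in 10 of these 31 (32.3%) and in 5.24% of all 32536 RefSeq promoters. For the other motifs the shares were 12.9% and 10.2% for TGACNNNGC, 16.1% and 6.04% for CACGTG, 9.68% and 5.6% for TGTTTTG, 51.6% and 33.8% for CCAAT, 12.9% and 12.3% for TATAAA, and 3.23% and 1.56% for TGACGTCA. GACGTG differs from the E-box in its first letter alone, and a match is a description of the letters, not of a site in use.

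Among the genes of glucose transport and release, the enzyme and the carrier of the glucose-6-phosphatase system had the larger differences. G6pc (chr11:101367561-101377903, GRCm38) was at 119 and 71.5 CPM in WT and at 259 and 409 CPM in DDI2-KO, from 2209 to 9399 reads a library. Both DDI2-KO libraries lay above both WT libraries, and the libraries of each genotype were also well apart. The WT mean was 95.5 ± 33.9 CPM (SD, n = 2) and the DDI2-KO mean 334 ± 106 CPM (SD, n = 2), a 3.50-fold rise (log2 fold change 1.81, standard error 0.31, adjusted p = 0.0429). Without DDI2-KO replicate 1 the adjusted p of G6pc was 0.0567, and without replicate 2 it was 0.0947, with log2 fold changes of 2.10 and 1.45. It passed without either WT library and in all 10 alternatives that kept the 4 libraries and used no replicate block.

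Slc37a4, which carries glucose-6-phosphate into the endoplasmic reticulum for that enzyme, was at 88.2 and 95.5 CPM in WT and at 156 and 141 CPM in DDI2-KO. Its libraries were close within each genotype and apart between them, but the gene missed the threshold (log2 fold change 0.69, standard error 0.16, adjusted p = 0.0660). Slc2a2, which encodes the hepatocyte carrier GLUT2, was at 326 and 284 CPM in WT and 426 and 407 CPM in DDI2-KO (log2 fold change 0.45, adjusted p = 0.174). The carrier of most other cells, GLUT1 from Slc2a1, was at 7.53 to 9.08 CPM in all 4 libraries and its groups overlapped (log2 fold change -0.07, adjusted p = 0.858).

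In upper glycolysis and fructose use 0 of 6 genes passed edgeR's test or DESeq2's, 1 had an unadjusted p under 0.05, the median log2 fold change was 0.03 and the groups overlapped in 5. Khk, the ketohexokinase that starts fructose breakdown, was the gene with both this p and no overlap, at 190 and 191 CPM in WT and 322 and 227 CPM in DDI2-KO (log2 fold change 0.53, standard error 0.21, adjusted p = 0.176). Gckr, a regulatory protein of glucose phosphorylation, was at 168 to 200.3 CPM in all libraries (log2 fold change -0.06, adjusted p = 0.872). Gpi1, glucose-6-phosphate isomerase, was at 139 and 159 CPM in WT and 182 and 149 CPM in DDI2-KO (log2 fold change 0.15, adjusted p = 0.658).

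The enzymes that set the pace of this segment had no common direction. Pfkl, the liver phosphofructokinase, was at 20.2 and 24.2 CPM in WT and 21.7 and 14.5 CPM in DDI2-KO (log2 fold change -0.29, adjusted p = 0.468). Pfkfb1 and Pfkfb3 encode enzymes that make or break fructose-2,6-bisphosphate, the activator of phosphofructokinase. Pfkfb1 was at 34.1 and 33.3 CPM in WT and at 36.3 and 18.9 CPM in DDI2-KO, so DDI2-KO replicate 2 alone stood below the rest. Its log2 fold change was -0.29 (adjusted p = 0.598), and it became -0.83 when DDI2-KO replicate 1 was left out and 0.12 without replicate 2. Pfkfb3 was at 6.42 and 8.93 CPM in WT and 7.15 and 9.49 CPM in DDI2-KO (log2 fold change 0.11, adjusted p = 0.817).

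In lower glycolysis 1 of 9 genes rose, 0 fell, and both DDI2-KO libraries lay above both WT libraries in 6. Pgk1 (chrX:106187100-106203699, GRCm38), the first step of glycolysis that yields ATP, was at 5.98 and 6.57 CPM in WT and at 16 and 28 CPM in DDI2-KO, from 201, 203, 414 and 643 reads. The WT libraries were alike, and the DDI2-KO libraries were both higher and further from each other. The means were 6.27 ± 0.419 CPM (SD, n = 2) and 22 ± 8.48 CPM (SD, n = 2), a 3.50-fold rise (log2 fold change 1.81, standard error 0.28, adjusted p = 0.0302). Without WT replicate 1 the adjusted p was 0.0584, and it stayed under 0.05 without each of the other libraries and in all 10 alternatives named above.

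The count of Pgk1 is uncertain, since 68.0% of its 50-base stretches also occur in 5 annotated pseudogenes and reads that fit several places were not counted. The pseudogene that shared most of them, Pgk1-rs7, had 1 to 7 reads a library. Relative to the reads on genes, the tally of alignments set aside as not unique came to 65.8% and 51.8% in WT and to 49.2% and 47.3% in DDI2-KO. This tally may count a read more than once, so it is not a share of reads lost. Its part in the difference was not tested. The same limit holds for Eno1 (72.2% of stretches shared), Pgam1 (41.5%), Pkm (34.4%), Gapdh (27.2%, with 208 pseudogenes), Ldha (16.6%), Aldoa (13.5%), Gpi1 (10.2%) and Tpi1 (7.51%).

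Pklr, the liver pyruvate kinase that ends glycolysis, was at 198 and 216 CPM in WT and 436 and 309 CPM in DDI2-KO, and shares none of its stretches. Its groups were apart, but it missed the threshold (log2 fold change 0.85, standard error 0.21, adjusted p = 0.0702). With a library left out its log2 fold change ran from 0.58 to 1.09. Pkm, the pyruvate kinase of other tissues, was at 21.6 and 22.4 CPM in WT and 25.0 and 16.8 CPM in DDI2-KO (log2 fold change -0.08, adjusted p = 0.861). Eno1, an enolase, was at 85.0 and 96.1 CPM in WT and 149 and 132 CPM in DDI2-KO (log2 fold change 0.63, standard error 0.17, adjusted p = 0.0803). Its neighbour in the pathway, the phosphoglycerate mutase Pgam1, was at 4.37 and 4.66 CPM in WT and 11.3 and 6.01 CPM in DDI2-KO (log2 fold change 0.94, standard error 0.31, adjusted p = 0.124). The difference in Pgam1 was thus mostly in DDI2-KO replicate 1, and with a library left out its log2 fold change ran from 0.41 to 1.33.

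The other 4 genes of this segment did not pass. Gapdh, glyceraldehyde-3-phosphate dehydrogenase, was at 4.97 and 4.92 CPM in WT and 6.57 and 6.44 CPM in DDI2-KO (log2 fold change 0.40, adjusted p = 0.295). Ldha, which interconverts pyruvate and lactate, was at 537 and 450 CPM in WT and 623 and 665 CPM in DDI2-KO (log2 fold change 0.38, adjusted p = 0.242). In both genes the groups did not overlap, but the difference missed the threshold. Aldoa, the aldolase of muscle and most tissues, was at 54.4 and 66.0 CPM in WT and 53.0 and 57.2 CPM in DDI2-KO (log2 fold change -0.13, adjusted p = 0.687), and Tpi1, triosephosphate isomerase, was at 272 to 296 CPM throughout (log2 fold change 0.06, adjusted p = 0.874).

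The 3 listed genes of the pyruvate dehydrogenase complex were the group in which every listed gene had both DDI2-KO libraries above both WT libraries, with a median log2 fold change of 0.76. Dlat (chr9:50634633-50659780, GRCm38) was at 47.7 and 48.6 CPM in WT and at 79.9 and 84.1 CPM in DDI2-KO, from 1502 to 2068 reads. Its libraries were within a few CPM of each other in each genotype. The means were 48.1 ± 0.662 CPM (SD, n = 2) and 82.0 ± 2.95 CPM (SD, n = 2), a 1.70-fold rise (log2 fold change 0.77, standard error 0.15, adjusted p = 0.0440). Dlat is close to the threshold. It passed in 6 of the 10 alternatives and had adjusted p of 0.0512 to 0.0607 in the other 4, 0.227 without WT replicate 1 and 0.173 without WT replicate 2, while its log2 fold change ran from 0.69 with offsets for GC content and length to 0.82 with library totals.

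Pdhb and Pdha1 encode the β and α subunits of the decarboxylase that begins the reaction. Pdhb was at 72.8 and 80.2 CPM in WT and 131 and 127 CPM in DDI2-KO (log2 fold change 0.76, standard error 0.16, adjusted p = 0.0516). With a library left out its log2 fold change ran from 0.69 to 0.83. Pdha1 was at 106 and 110 CPM in WT and 139 and 158 CPM in DDI2-KO (log2 fold change 0.45, standard error 0.16, adjusted p = 0.151). Of the complex's other subunits, Dld, which other dehydrogenases share, was at 129 and 131 CPM in WT and 111 and 124 CPM in DDI2-KO (log2 fold change -0.15, adjusted p = 0.636). Both DDI2-KO libraries thus lay below both WT libraries for Dld. Pdhx was at 23.4 and 28.9 CPM in WT and 29.5 and 32.9 CPM in DDI2-KO, above WT in both (log2 fold change 0.26, adjusted p = 0.418). Dld and Pdhx are not among the 33 genes and were added after their values were seen.

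The genes around this step were taken from a list of 75 other genes of the same pathways, of which 67 were tested. In that list 5 rose (7.46%, against 1.33% of all genes) and 0 fell, while 3 were lower at an unadjusted p under 0.05 and 1 by DESeq2. The median log2 fold change was 0.10. The groups were apart upwards in 23 genes (34.3%, near the 28% of all genes), downwards in 12 (17.9%, against 27.7%) and overlapped in 32. The 5 were Pdk4, Pdk1, Mpc2, Slc16a1 and Gpd2. Pdk4 and Pdk1 encode kinases that phosphorylate and switch off pyruvate dehydrogenase. Pdk4 was at 6.78 and 6.93 CPM in WT and 35.5 and 32.6 CPM in DDI2-KO (log2 fold change 2.31, standard error 0.17, adjusted p = 0.00911). It was the 1 gene of the 5 that passed without each single library.

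Pdk1 was at 86.5 and 73 CPM in WT and 182 and 153 CPM in DDI2-KO (log2 fold change 1.07, standard error 0.18, adjusted p = 0.0345). Mpc2, a subunit of the carrier that brings pyruvate into mitochondria, was at 84.3 and 93.2 CPM in WT and 168 and 181 CPM in DDI2-KO (log2 fold change 0.97, standard error 0.17, adjusted p = 0.0353). Slc16a1, the lactate and pyruvate carrier MCT1 of the cell membrane, was at 46.3 and 37.7 CPM in WT and 82.3 and 125 CPM in DDI2-KO (log2 fold change 1.31, standard error 0.23, adjusted p = 0.0404). All of these had groups well apart. Gpd2, the mitochondrial glycerol-3-phosphate dehydrogenase, was at 33 and 30.8 CPM in WT and 55.6 and 65.3 CPM in DDI2-KO (log2 fold change 0.92, standard error 0.16, adjusted p = 0.0393). Without WT replicate 1 the adjusted p was 0.0707 for Pdk1, 0.153 for Mpc2, 0.0583 for Slc16a1 and 0.131 for Gpd2, and without WT replicate 2 it was 0.116, 0.0791, 0.0908 and 0.144 in the same order.

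The kinases did not move as a family. Pdk2, the kinase with the highest level per kilobase of exon in WT liver here (45.4 CPM per kb, against 10.3 for Pdk1, 1.95 for Pdk4 and 0.464 for Pdk3), was at 142 and 145 CPM in WT and 104 and 88.5 CPM in DDI2-KO (log2 fold change -0.58, standard error 0.17, adjusted p = 0.0946). Pdk3 was at 0.922 to 1.46 CPM in all 4 libraries (log2 fold change 0.04, adjusted p = 0.967), with a negative value under upper-quartile scaling.

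**Figure D3:**
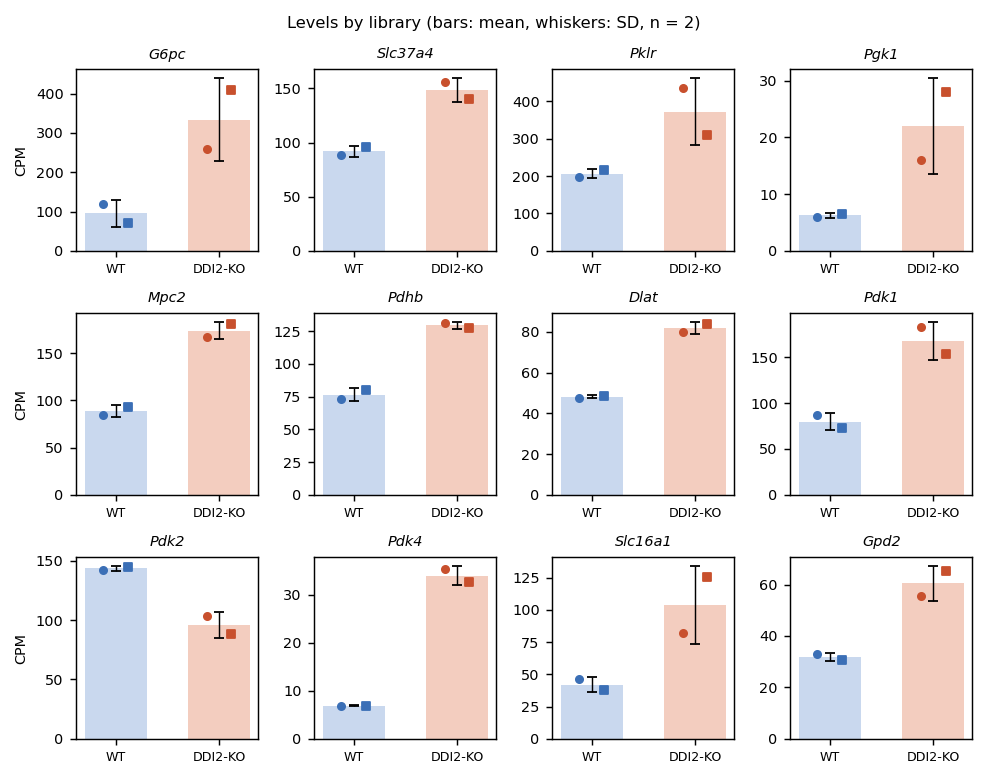
CPM of 12 genes around glucose release and pyruvate in each library (points; circles, replicate 1; squares, replicate 2), with the mean as a bar from 0 and the SD as whiskers (n = 2). G6pc, Pgk1 and Dlat of the 33 genes and Pdk4, Pdk1, Mpc2, Slc16a1 and Gpd2 of the other pathway genes rose, both DDI2-KO libraries of Pklr, Slc37a4 and Pdhb are above WT, and those of Pdk2 are below it.

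In gluconeogenesis proper 0 of 4 genes passed edgeR's test or DESeq2's, 0 had an unadjusted p under 0.05, and the groups overlapped in 3. Pck1, the cytosolic phosphoenolpyruvate carboxykinase, was at 919 and 698 CPM in WT and 884 and 566 CPM in DDI2-KO (log2 fold change -0.16, standard error 0.25, adjusted p = 0.748). Its mitochondrial counterpart Pck2 was at 4.31 and 3.37 CPM in WT and 3.40 and 3.31 CPM in DDI2-KO (log2 fold change -0.20, adjusted p = 0.693). In both, the 2 WT libraries were further apart than the group means.

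Pcx, pyruvate carboxylase, was at 325 and 279 CPM in WT and 359 and 254 CPM in DDI2-KO (log2 fold change 0.02, standard error 0.21, adjusted p = 0.962), and its sign turned under upper-quartile scaling. Fbp1, the fructose-1,6-bisphosphatase of liver, was at 508 and 604 CPM in WT and 735 and 668 CPM in DDI2-KO (log2 fold change 0.34, standard error 0.18, adjusted p = 0.301). Fbp1 was the gene of this group with both DDI2-KO libraries above WT.

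Among the 7 glycogen genes 0 passed edgeR's test, 3 were higher and 1 lower at an unadjusted p under 0.05, and DESeq2 called 3 higher. The groups were apart upwards in 5 and downwards in 1, and the median log2 fold change was 0.72. Pygl, the liver glycogen phosphorylase, was at 351 and 370 CPM in WT and 650 and 538 CPM in DDI2-KO (log2 fold change 0.72, standard error 0.18, adjusted p = 0.0731). Gys2, the liver glycogen synthase, was at 141 and 232 CPM in WT and 122 and 124 CPM in DDI2-KO (log2 fold change -0.60, standard error 0.24, adjusted p = 0.185). The DDI2-KO libraries were alike for Gys2, and WT replicate 1 was much nearer to them than WT replicate 2 was. Gbe1, the branching enzyme, was at 112 and 121 CPM in WT and 144 and 149 CPM in DDI2-KO (log2 fold change 0.33, adjusted p = 0.256). Ugp2, which makes the UDP-glucose that the synthase uses, was at 387 and 378 CPM in WT and 312 and 459 CPM in DDI2-KO (log2 fold change 0.01, adjusted p = 0.980), and its sign turned under several alternatives.

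Of the subunits that bring protein phosphatase 1 to glycogen, the 3 among the 33 genes all had higher DDI2-KO libraries, with unequal spread. Outside the 33 genes, the groups of Ppp1r3d and Ppp1r3e overlapped (log2 fold changes -0.21 and 0.08, adjusted p = 0.844 and 0.877). Ppp1r3a and Ppp1r3f, with 0 to 3 reads a library, were not tested. Ppp1r3b, a main subunit of liver, was at 138 and 111 CPM in WT and 210 and 255 CPM in DDI2-KO (log2 fold change 0.90, standard error 0.19, adjusted p = 0.0535). Ppp1r3c was at 87.0 and 100.1 CPM in WT and 126 and 280.2 CPM in DDI2-KO (log2 fold change 1.12, standard error 0.37, adjusted p = 0.149). Ppp1r3g was at 0.119 and 1.04 CPM in WT and 2.05 and 9.57 CPM in DDI2-KO, from 4, 32, 53 and 220 reads. For Ppp1r3c and Ppp1r3g, DDI2-KO replicate 2 stood far above replicate 1. The fitted log2 fold change of Ppp1r3g, 3.34, was the largest of the 33 genes and had the largest standard error (1.24, adjusted p = 0.226). With a library left out the log2 fold change ran from 0.75 to 1.07 for Ppp1r3b and from 0.44 to 1.59 for Ppp1r3c.

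Levels per kilobase of merged exons put the 33 genes on 1 scale. In WT, Fbp1 was highest at 327 CPM per kb, followed by Pck1 at 236, Ldha at 149, Ugp2 at 125, Khk at 106 and Tpi1 at 101, and Ppp1r3g (0.214), Pck2 (0.492) and Pfkfb3 (1.02) were lowest. In DDI2-KO, Fbp1 (412), Pck1 (211) and Ldha (195) stayed at the top by level. G6pc stood at 39.6 CPM per kb in WT and at 138 in DDI2-KO, next to Khk (153) and Ugp2 (126) there, from which it did not differ by more than its spread of 43.8 (SD). Pklr went from 63.9 to 115 CPM per kb. The level of Gapdh, 1.20 CPM per kb in WT, is one of those that reads shared with pseudogenes can lower.

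The hexokinases of other tissues, which are outside the 33 genes, were low and overlapped between the genotypes, with log2 fold changes of -0.04 for Hk1, 0.03 for Hk2 and -0.16 for Hk3 (adjusted p = 0.939, 0.960 and 0.799), and the signs of Hk1 and Hk2 turned with the scaling.

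Ratios between genes that act against or in place of each other do not depend on the scaling between libraries. Pklr over Pkm was 14.1 and 14.9 in WT and 27.0 and 28.5 in DDI2-KO, in CPM per kb. The 2 libraries of each genotype were close to each other, and DDI2-KO was higher.

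Gys2 over Pygl, synthase over phosphorylase, was 1.04 and 1.63 in WT and 0.486 and 0.597 in DDI2-KO. Pck1 over Pklr was 4.38 and 3.05 in WT and 1.91 and 1.73 in DDI2-KO, and Fbp1 over Pfkl was 98.6 and 98.0 in WT and 133 and 181 in DDI2-KO. The groups were apart in all 4 ratios computed, with log2 differences of 0.94, -1.27, -1.01 and 0.66 in the order given. Each had p = 0.333 in the two-sided exact permutation test, the smallest that 2 against 2 libraries allows, so none of them can pass. How often the groups are apart in other gene pairs was not counted, so these ratios have no baseline.

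**Figure D4:**
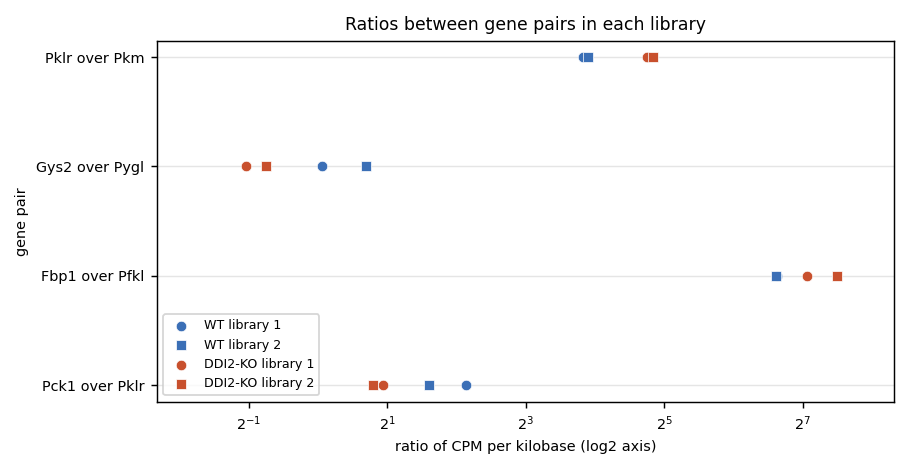
Ratio of the CPM per kilobase of 4 gene pairs in each library on a log2 axis (blue, WT; red, DDI2-KO; circles, replicate 1; squares, replicate 2). The DDI2-KO libraries lie to the right of WT for Pklr over Pkm and Fbp1 over Pfkl, and to the left for Gys2 over Pygl and Pck1 over Pklr.

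The 2 DDI2-KO libraries differed from each other along GC content. Over 13637 genes the log2 ratio of DDI2-KO replicate 2 over replicate 1 had a Spearman correlation of -0.48 with the GC content of the longest transcript, and over the 33 genes it was -0.41. The same values for WT replicate 2 over replicate 1 were 0.07 and 0.15, and for DDI2-KO over WT they were 0.05 and -0.11. These are descriptions across genes, which share their libraries. With offsets for GC content and length in each library, 8 of the 33 genes rose and 0 fell, namely G6pc, Pgk1, Dlat, Slc37a4, Eno1, Pklr, Pdhb and Ppp1r3b, and the median log2 fold change was 0.28. Calls grew over all genes too, to 463 higher and 379 lower with the offsets, from 182 and 164 without them.

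**Figure D5:**
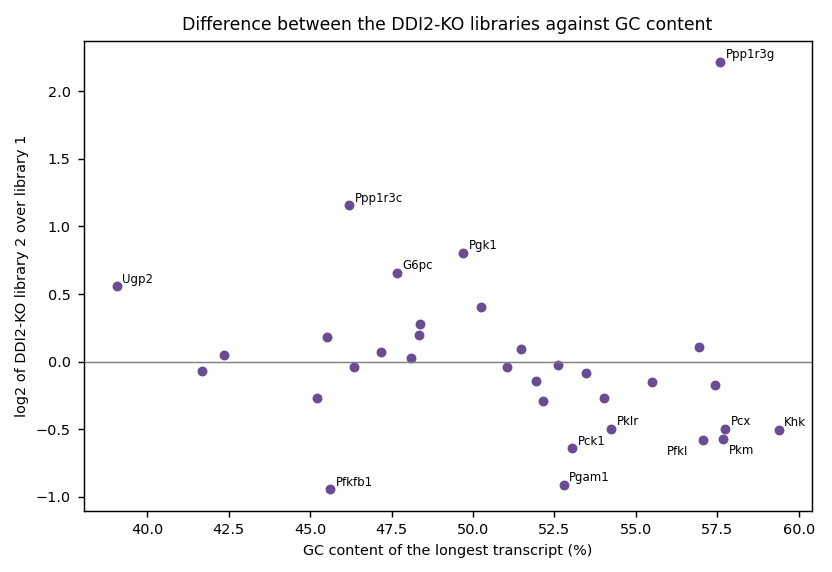
Log2 ratio of DDI2-KO replicate 2 over DDI2-KO replicate 1 for each of the 33 genes, from scaled counts, against the GC content of its longest annotated transcript in percent. The GC-rich Khk, Pcx, Pkm and Pfkl lie below 0 and Ugp2 above it, with a Spearman correlation of -0.41, and Ppp1r3g, Ppp1r3c, Pgk1 and G6pc are those highest in replicate 2. Some genes go against the trend, among them the GC-rich Ppp1r3g (57.6%) and Pfkfb1 (45.6%), which lies at -0.94.

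The transcripts that report feeding, time of day and other cells varied beside these genes, and their part in the results was not tested. Of 10 lipogenic genes of the fed state 1 rose, Me1 (malic enzyme, log2 fold change 1.66, adjusted p = 0.0103), and 4 were higher at an unadjusted p under 0.05. Their summed level was 5312 and 15692 CPM in the WT libraries and 25414 and 24652 CPM in DDI2-KO, most of it from Scd1, the stearoyl-CoA desaturase, which did not pass (4127 and 13732 CPM in WT, 23177 and 23061 CPM in DDI2-KO, adjusted p = 0.277). Without Scd1 the other 9 genes summed to 1185 and 1960 CPM in WT and 2237 and 1591 CPM in DDI2-KO, and the groups overlapped. Of 12 fasting genes 1 rose, Pdk4, with sums of 6129 and 3861 CPM in WT and 5360 and 4727 CPM in DDI2-KO. At an unadjusted p under 0.05, 3 of the 12 were higher and 2 lower, and DESeq2 called 2 higher and 2 lower. The WT libraries stood apart from each other in both lists. Of 24 regulators of glucose metabolism 0 passed edgeR's test, at an unadjusted p under 0.05 there were 3 higher and 5 lower, DESeq2 called 2 higher and 3 lower, and 17 had a log2 fold change below 0 (median -0.22). Of 9 periportal genes 0 passed and all were below 0 (median -0.42), with 2 at an unadjusted p under 0.05 and 1 called by DESeq2, and of 10 pericentral genes 0 passed (median 0.07), with 2 at that p and 0 by DESeq2. Among 15 clock genes Nfil3 rose (1.18, adjusted p = 0.0345) and Nr1d2 and Per1 fell (-1.08 and -1.27, adjusted p = 0.0289 and 0.0438). Over the clock list 11 log2 fold changes were below 0 (median -0.62), and 2 genes were higher and 5 lower both at an unadjusted p under 0.05 and by DESeq2.

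Of the markers of other cells, 1 of 5 erythroid genes fell, Hba-a1 (log2 fold change -1.94, adjusted p = 0.0338), with summed levels of 109 and 210.1 CPM in WT and 79.3 and 68.3 CPM in DDI2-KO. All 5 were below 0 (median -1.14), 4 were lower at an unadjusted p under 0.05 and DESeq2 called 3. In addition, 1 of 5 endothelial genes fell, Stab2 (-1.10, adjusted p = 0.0288), with 2 genes lower at that unadjusted p and 1 by DESeq2. The endothelial genes had no common direction, with 3 log2 fold changes above 0 and 2 below (median 0.04). Their sums were 310.5 to 338 CPM in WT and 302 to 307 CPM in DDI2-KO. Within these sums Stab2 was at 73.7 and 61.2 CPM in WT and 32.9 and 29.9 CPM in DDI2-KO. Without single libraries the calls of Per1, Nr1d2, Nfil3, Stab2 and Hba-a1 were lost at least once, and that of Me1 was kept. None of 6 Kupffer cell, 5 stellate cell, 5 bile duct and 5 lymphocyte markers passed edgeR's test. At an unadjusted p under 0.05, 1 Kupffer cell marker was higher and 1 lower. At that p 1 stellate cell and 1 lymphocyte marker were lower and 1 bile duct marker was higher. DESeq2 called 1 Kupffer cell marker higher and 0 of the others. Of the 6 Kupffer cell markers, 4 log2 fold changes were above 0 and 2 below. Summed levels of Kupffer cell markers were 511 to 597 CPM in WT and 615 to 720 CPM in DDI2-KO. Those of stellate cell markers were 412 to 424 and 367 to 408, and of lymphocyte markers 25.8 to 26.3 and 18.7 to 21.1. Those of bile duct markers were 52.8 to 56.4 and 68.7 to 70.4, most of it from Spp1. The defining markers Ckm, Acta1 and Myh4 of muscle, which makes Aldoa and Pkm, had no read in any library, nor had Plin1, Lep and Retn of adipocytes and Prss2, Cpa1 and Ins2 of pancreas. The other gene of each of these lists had reads, with 15 to 24 a library for Mylpf of muscle, 1 to 2 for Adipoq of adipocytes and 196 to 652 (6.34 to 19.4 CPM) for Cela1 of pancreas, and its groups overlapped.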

How the data were processed

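Per the labels, liver poly(A) RNA was sequenced with a stranded kit, and the submitters' processing notes name cutadapt 1.8, STAR 2.5.2b and HTSeq 0.6.1. The authors deposited raw counts per library, which are whole numbers of reads for every Ensembl gene with no scaling applied. The strand setting and annotation release used for counting are not given in the sources used here. Summary lines for reads on no gene (2.53 to 5.11% of the reads on genes) were left out of library sizes and tests. Symbols, positions on GRCm38 and exon lengths came from GENCODE, which held 48349 of the 48709 identifiers. Depth was 22501208 to 34109018 reads on genes, where 3 counts equal 0.0880 to 0.133 CPM, and with 2 libraries a group their number limits precision.

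Counts were compared with edgeR 4.0.16 in R 4.3.3 (TMM, filterByExpr, robust glmQLFit, glmQLFTest, no replicate block) over 13699 genes, with Benjamini-Hochberg adjustment over all of them and a threshold of 0.05. Unless another tool is named, every adjusted p is from this test. Where a library was left out, its group had a single library, so the adjusted p rests on the spread of the other group alone. Alternatives were limma 3.58.1 (the tool of the study's methods, as trend with a prior count of 2 and as voom), DESeq2 1.42.0, RLE and upper-quartile factors, library totals, no filter, a minimum mean of 1 CPM, glmQLFit without robust estimation, the replicate number as a block, lowess offsets for GC content and length (span 0.3), a threshold of 0.1 and leaving out each library. The method was tested on simulated data, with set changes larger than those of most genes here and no GC trend between libraries. Its power for smaller changes was not tested. No library repeated another: within WT and within DDI2-KO the counts differed beyond sampling noise (chi-square over its degrees of freedom of 64.7 and 34.7). Members and lists were chosen with earlier results of these data known. Every member is named, and of the other lists the genes with an adjusted p under 0.05, plus Hk1 to Hk3 and Pdk1 to Pdk4, apart from items of that rule that are not reported here. Dld, Pdhx, Scd1, Ppp1r3a, Ppp1r3d, Ppp1r3e, Ppp1r3f and the muscle, adipocyte and pancreas markers fall outside this rule and were named after their values were seen.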

Additional observations from a re-analysis of the deposited data

How the results depend on the processing

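Of 735 comparisons of a gene's value with an alternative, over 49 named genes, 631 kept their direction and side of the threshold, 36 lost a call, 36 gained one and 32 changed sign. The number of the 33 genes called, 3, became 10 with DESeq2, 5 with library totals only, 10 with no filter, 8 with offsets for GC content and length and 9 at an adjusted p under 0.1, all higher. It was 2 with limma-trend, limma-voom, no robust estimation and upper-quartile factors, and ran from 1 to 5 with each library left out. The 5 calls among the other pathway genes became 3 with limma-trend, limma-voom or no robust estimation, 8 with no filter, and 1 to 6 with a library left out. Over all genes the 346 calls became 932 with DESeq2, 139 with limma-trend, 136 with limma-voom, 1544 with no filter, 152 without robust estimation, 842 with the offsets and 153 to 631 with a library left out (lowest without WT replicate 1, highest without DDI2-KO replicate 2). The cause of these moves was not tested. Of the calls over all genes, 39.7% were higher with upper-quartile factors and 60.8% with library totals only, against 52.6%. The median log2 fold change of the 33 genes, 0.38, was 0.43 with library totals, 0.28 with the offsets, 0.33 with upper-quartile factors and 0.36 to 0.40 with a library left out. As a replicate block, the replicate numbers gave 10 calls among the 33 genes and 1108 over all genes, but same-numbered libraries deviated together with a correlation of only 0.06 and nothing in the labels pairs them, so the block is not read as a paired design.

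Signs changed in genes near 0. With upper-quartile factors Pcx was -0.029, Ugp2 -0.042, Hk2 -0.023 and Pdk3 -0.019, and with the offsets Tpi1 was -0.083 and Pdk3 -0.12. Ugp2 was -0.015 with limma-trend and the replicate block, -0.014 with limma-voom and -0.0066 with a minimum mean of 1 CPM, and Hk1 was 0.0039 with library totals. With a library left out the log2 fold change ran from -0.21 to 0.062 for Slc2a1, -0.15 to 0.040 for Gckr, -0.83 to 0.12 for Pfkfb1, -0.10 to 0.37 for Pfkfb3, -0.26 to 0.018 for Aldoa, -0.39 to 0.19 for Pkm, -0.24 to 0.26 for Pcx, -0.51 to 0.14 for Pck1, -0.28 to 0.27 for Ugp2, -0.28 to 0.17 for Hk1, -0.081 to 0.15 for Hk2, -0.70 to 0.24 for Hk3 and -0.26 to 0.40 for Pdk3.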
